A study of Mus musculus with 20 samples.

Results

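The olaparib response of MDA594 was read from 7 libraries, 3 from olaparib-treated and 4 from control tumours, out of the 20 libraries of the series. MDA594 is a mouse breast cancer carried as an allograft, a tumour passed on by growing it in other mice, and the submitters describe it as sensitive to PARP inhibitors. Resistant tumours named MDA594OR1 and MDA594OR2, called OR1 and OR2 here, supplied 7 and 5 further libraries, used below only for comparison. The olaparib-treated tumours carried 2 host codes at the end of their titles, with olaparib libraries 1 and 2 sharing 1 code, and the control tumours carried 3, with control libraries 3 and 4 sharing 1 code. Libraries with the same code were taken to come from 1 mouse, which the labels leave unsaid. The header of the deposited table heads the control columns as vehicle. The strain, age and immune state of the hosts, what the vehicle was, and the schedule and unit of the dose are not given in the sources used here, and every tumour descends from 1 allograft line. A further MDA594 library was left out because its treatment label says treated, while its title names a control and the table's header sets it under vehicle.

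PARP1 and PARP2 bind broken DNA and mark it for repair, and olaparib blocks their activity and holds them on the DNA. Cells that cannot repair the resulting breaks by homologous recombination accumulate damage. DNA fragments that reach the cytosol can be bound by the sensor cGAS, which signals through STING to switch on type I interferons. These in turn induce a large set of antiviral genes, class I antigen presentation and chemokines that draw in T cells and natural killer (NK) cells. The comparison here asks which of these programmes, and which others, differed between treated and untreated sensitive tumours.

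Poly(A) RNA had been sequenced. Reads recovered from the deposited values, summed over the deposited genes only, were 118, 82.3 and 63.0 M in the olaparib libraries. In the control libraries they were 48.7, 55.1, 82.1 and 89.2 M. Values are given below as counts per M (CPM), in the order olaparib 1, 2 and 3 and control 1, 2, 3 and 4, and changes are log2 differences, olaparib over control, with a standard error (SE) from a limma model. Pearson correlations between pairs of the 7 libraries, across genes, ran from 0.924 to 0.986, and the pairs with a shared code gave 0.984 and 0.986. Features of 3 libraries recur below. Olaparib library 3 held skeletal muscle RNA, control library 1 had high interferon-induced genes, and control library 2 was low in antigen presentation and lymphocyte genes. Library names fall into 2 series, and all olaparib libraries and controls 3 and 4 are in series 450. The titles also carry a number of unstated meaning, which olaparib 1 and 2 share with controls 3 and 4. Beside the median of a list, the median within series 450, which leaves out controls 1 and 2, and within that title number are given. The title number compares 1 host code with 1 host code. Counts of members beside it come from a fit of 19 libraries with the title number as a term, and the libraries of that number were not tested alone.

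The label of breast cancer was matched by luminal epithelial genes in every library. The epithelial adhesion gene Epcam had 982, 750.4 and 818 CPM in olaparib libraries and 609, 949, 1148 and 1074 CPM in control libraries. The luminal keratin gene Krt8 had 364, 256 and 264 CPM in olaparib libraries and 223, 431, 269.6 and 301 CPM in control libraries. Epcam changed by -0.08 (SE 0.32) and Krt8 by -0.06 (SE 0.37), with groups that overlapped, and the sign of either depended on single libraries, as given at the end. The summed level of 20 mammary epithelial markers was 3474, 2452 and 2689.9 CPM with olaparib and 2605, 3610.2, 3648 and 3799 CPM in controls.

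Of 16330 genes tested, 20 passed an adjusted p of 0.05, which is 0.122% of them, with 9 higher (0.0551%) and 11 lower (0.0674%) in olaparib-treated tumours. All 20 are protein-coding, and for each of them every olaparib library lay on 1 side of every control library. The 3 largest rises were in Clec7a, Ms4a4c and Cxcl10, and the falls included the circadian clock genes Rora and Dbp. Every adjusted p was 0.0495 or 0.0497, just inside the threshold. At an unadjusted p under 0.05 there were 1422 higher and 1318 lower genes, 8.71% and 8.07% of those tested, and 2080 genes (12.7%) had all olaparib libraries above all controls while 1987 (12.2%) had them all below. The change was above 0 for 50.9% of tested genes. Counts of list members at an unadjusted p, or with groups that do not overlap, are to be read against these shares.

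Clec7a (ENSMUSG00000079293.13), the receptor on macrophages and dendritic cells for fungal glucans, had 83.6, 96.02 and 58.6 CPM in olaparib libraries, against 17.4, 2.34, 9.61 and 5.07 CPM in control libraries. It rose by 3.50 (SE 0.66) on the log2 scale, and the lowest olaparib library stood well above the highest control. Ms4a4c (ENSMUSG00000024675.20), a membrane protein of the MS4A family found on immune cells, had 27.8, 17.6 and 8.99 CPM with olaparib and 4.65, 0.874, 1.93 and 1.10 CPM in controls, a rise of 3.11 (SE 0.59). Cxcl10 (ENSMUSG00000034855.14), an interferon-induced chemokine that attracts T cells and NK cells through CXCR3, had 89.5, 69.2 and 48.01 CPM with olaparib and 26.4, 5.70, 6.37 and 5.04 CPM in controls, a rise of 2.85 (SE 0.53). Control 1 stood above the other controls for all 3 of these genes and olaparib 1 or 2 was the highest library.

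The other 6 rises were smaller and more even across libraries. Mfsd12 (ENSMUSG00000034854.9), which carries cysteine into lysosomes and melanosomes, had 20.2, 16.6 and 21.5 CPM with olaparib and 8.94, 8.30, 5.73 and 5.96 CPM in controls and rose by 1.42 (SE 0.24). Creld2 (ENSMUSG00000023272.5), an endoplasmic reticulum protein induced when folding is disturbed, had 58.8, 54.9 and 69.3 CPM with olaparib and 31.7, 26.5, 36.1 and 32.5 CPM in controls and rose by 0.99 (SE 0.18). Nectin3 (ENSMUSG00000022656.16), a cell adhesion molecule, had 43.1, 45.7 and 49.3 CPM with olaparib and 25.1, 23.8, 18.04 and 15.98 CPM in controls and rose by 1.14 (SE 0.22). In these 3 genes the lowest olaparib library was above the highest control by a clear margin. Cdr2, known as a target of antibodies in cerebellar degeneration, rose by 1.17 (SE 0.22), with 26.7, 25.4 and 24.2 CPM with olaparib and 12.3, 12, 11.01 and 9.27 CPM in controls. Lactb, a mitochondrial protein related to bacterial beta-lactamases, rose by 0.94 (SE 0.17), with 10.1, 10.3 and 11.1 CPM with olaparib and 4.97, 5.77, 6.02 and 5.37 CPM in controls. Akirin1, a small nuclear protein, rose by 0.88 (SE 0.16), with 24.8, 27.3 and 24.6 CPM with olaparib and 12.9, 13.4, 15.9 and 13.6 CPM in controls. These last 3 had olaparib libraries within a narrow range of one another.

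Among the 11 falls, Rora (ENSMUSG00000032238.18), a nuclear receptor that activates the clock gene Bmal1, had 34.7, 29.4 and 24.6 CPM with olaparib and 62.7, 62.4, 64.7 and 75.2 CPM in controls and fell, with a change of -1.19 (SE 0.19). Dbp (ENSMUSG00000059824.13), a transcription factor driven directly by the clock, had 14.5, 11.4 and 9.18 CPM with olaparib and 29.2, 26.9, 32.8 and 33.9 CPM in controls, a change of -1.43 (SE 0.25). Hdac11 (ENSMUSG00000034245.11), the class IV histone deacetylase, had 21.9, 16.3 and 14.8 CPM with olaparib and 37.1, 37.98, 38.6 and 40.4 CPM in controls, a change of -1.17 (SE 0.20). The controls of Hdac11 were nearly level, while olaparib 1 was the highest of the olaparib libraries for all 3 genes.

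Other falls were in genes of varied roles. Selenbp1 (ENSMUSG00000068874.14), which oxidises methanethiol, had 8.96, 6.09 and 7.76 CPM with olaparib and 17.5, 21.97, 21.6 and 29.4 CPM in controls, a change of -1.53 (SE 0.28). Fn3k (ENSMUSG00000025175.13), a kinase that removes sugars bound to proteins, had 0.891, 0.686 and 0.609 CPM with olaparib and 4.71, 2.53, 1.89 and 1.94 CPM in controls, a change of -1.93 (SE 0.33). Mettl27 (ENSMUSG00000040557.15), a predicted methyltransferase, had 19.3, 14.3 and 12.6 CPM with olaparib and 39.96, 46.2, 51.8 and 55.7 CPM in controls, a change of -1.67 (SE 0.26). All 3 were lower in every olaparib library than in any control. Fbxl20, the substrate-binding part of a ubiquitin ligase, changed by -0.88 (SE 0.16), and had 62.7, 53.05 and 50.3 CPM with olaparib and 97.3, 94.3, 104 and 111 CPM in controls. Mpv17l, a protein of peroxisomes and mitochondria, changed by -0.96 (SE 0.18), and had 11.4, 11.8 and 11.1 CPM with olaparib and 23.6, 19.1, 23.2 and 24.4 CPM in controls. Lurap1, an adaptor protein with leucine-rich repeats, changed by -1.11 (SE 0.21), and had 9.76, 7.24 and 7.57 CPM with olaparib and 17.8, 16.2, 17.01 and 18.99 CPM in controls. These genes were at about the same level in every control.

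The remaining falls were in genes of low level. Ccdc60, a coiled-coil protein of unsettled function, had 1.82, 0.949 and 0.578 CPM with olaparib and 4.78, 5.49, 9.92 and 10.8 CPM in controls, a change of -2.86 (SE 0.50). Mpped1, a predicted phosphoesterase, had 0 reads in each olaparib library and 43, 28, 7 and 2 reads in the control libraries. Set against a floor of 3 reads over the olaparib group, Mpped1 was at least 27.97-fold lower with olaparib, by counting error only, and controls 1 and 2 held most of its reads.

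**Figure D1:**
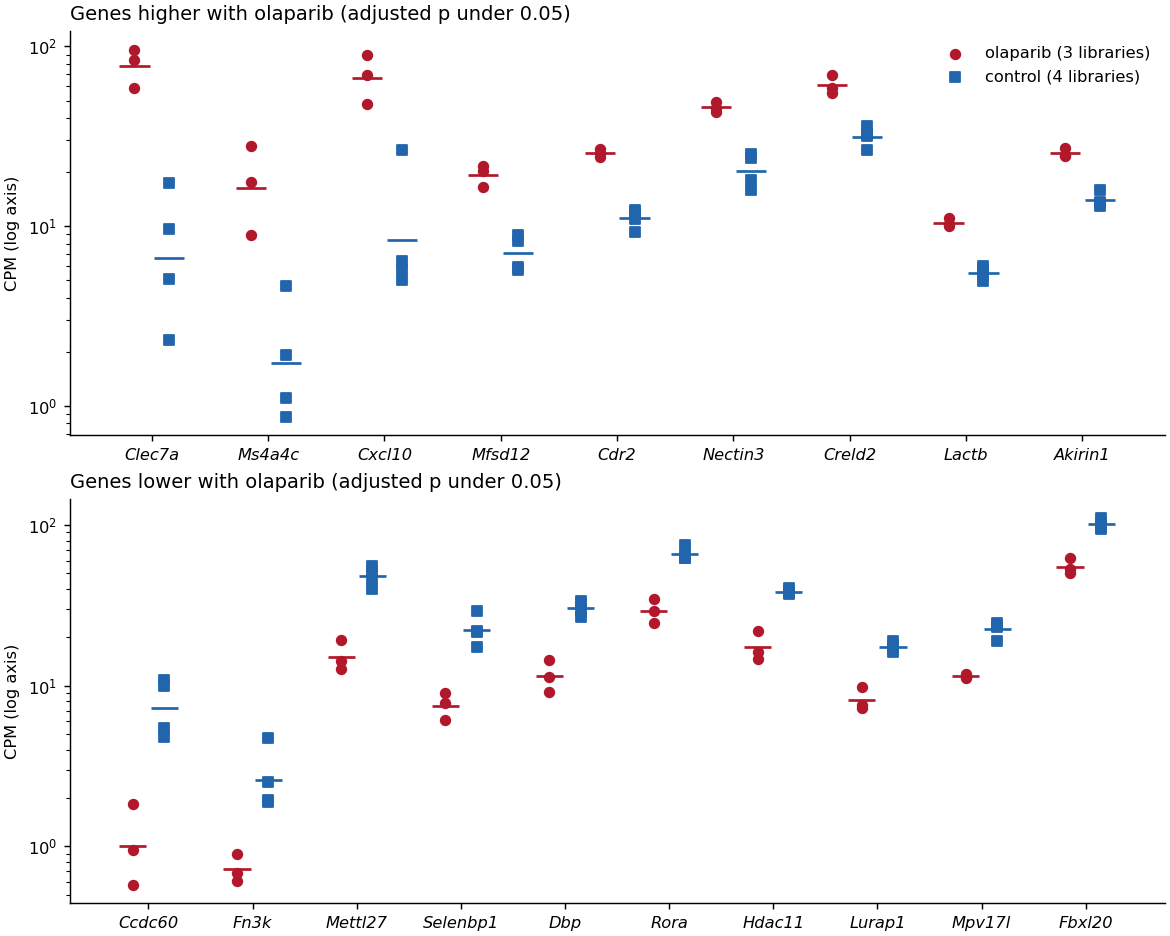
CPM on a log axis of the genes past an adjusted p of 0.05, in 3 olaparib libraries (red circles) and 4 control libraries (blue squares), with a bar at the mean log2 CPM of each group. The upper panel holds 9 genes higher with olaparib and the lower panel 10 of the 11 lower genes, Mpped1 being left out because its olaparib libraries have 0 reads; in none of the genes do the groups overlap.

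The count of 20 was not stable to the choice of libraries. No gene passed without control 2, without olaparib 2 or without olaparib 3, while 389 passed without control 1, 40 without control 3, 6 without control 4 and 18 without olaparib 1. The voom model on recovered reads called 0 genes. None of the 20 changes reversed in sign in any of these fits. This adds no support, because the groups overlap in none of the 20, so leaving out libraries could not turn a sign. Within series 450, 5220 genes passed, and 3123 passed with the title number in the model, with all 20 among them in both cases. These fits have estimated correlations between libraries of a code of -0.298 and -0.127, which narrow the errors, and 7161 and 5673 of the 16330 genes reached an unadjusted p under 0.05 in them.

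The type I interferon programme had positive changes throughout. All 40 tested members had a change above 0, against 50.9% of all genes, with a median of 1.82 (2.16 within series 450 and 2.32 within the title number), and 38 had an unadjusted p under 0.05 on the higher side (8.71% of all genes). For 29 of the 40 every olaparib library was above every control, against 12.7% of all genes, and 0 passed the adjusted threshold. Isg15, a ubiquitin-like protein attached to viral and host proteins, had 27.4, 13.9 and 11.6 CPM in olaparib libraries, against 5.65, 2.32, 2.33 and 1.59 CPM in control libraries. Oas1a, which makes the second messenger that activates RNase L, had 42.1, 18.01 and 14.7 CPM with olaparib, against 9.47, 2.22, 3.10 and 2.12 CPM in controls. Ifit2, which binds viral RNA, had 63.04, 28.7 and 24.5 CPM with olaparib, against 16.2, 10.8, 7.04 and 6.26 CPM in controls. In each of these genes olaparib 1 was by far the highest library and control 1 was the highest control. Their changes were 2.50 (SE 0.52) for Isg15, 2.56 (SE 0.59) for Oas1a and 1.77 (SE 0.41) for Ifit2, with adjusted p values of 0.0681, 0.0938 and 0.0938.

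The summed level of the 40 genes was 2470.3, 1194 and 1013 CPM with olaparib and 921, 306, 402 and 359.7 CPM in controls. Olaparib 1 and 2, taken to come from 1 mouse, thus differed by more than olaparib 3 and control 1, which carry different codes and treatments. Leaving out 1 library at a time gave medians of 1.56 to 2.30 with 32 to 40 members at an unadjusted p under 0.05.

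A short DNA element, the interferon-stimulated response element, binds the STAT and IRF factors activated by interferon. Its core, GAAA, then 2 bases of any kind, then GAAA, was searched on both strands of the 250 bases before the annotated start of each gene. It was found in 11 of 28 interferon-induced genes with a promoter sequence at hand and in 9 of 10 interferon-inducible GTPases, against 379 of 11257 tested genes, or 3.37%. The stretches around the core, in capitals, are shown for the interferon-induced genes Isg15 and Oas1a, for Cxcl10, the chemokine that passed the threshold, and for the GTPases Igtp and Irgm2, described next.
Isg15: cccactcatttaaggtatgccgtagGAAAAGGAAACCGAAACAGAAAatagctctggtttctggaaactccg
Oas1a: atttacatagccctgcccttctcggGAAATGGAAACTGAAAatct
Cxcl10: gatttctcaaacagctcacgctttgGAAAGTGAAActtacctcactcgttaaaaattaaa
Igtp: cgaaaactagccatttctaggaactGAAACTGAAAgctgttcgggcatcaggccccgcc
Irgm2: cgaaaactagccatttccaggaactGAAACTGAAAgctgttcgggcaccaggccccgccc
They read 5′ to 3′ in the direction of each gene and were taken from RefSeq on GRCm38.p6, at chr4:156200850-156200921 on the minus strand for Isg15, chr5:120907526-120907570 on the minus strand for Oas1a, chr5:92349068-92349127 on the minus strand for Cxcl10, chr11:58199497-58199555 on the plus strand for Igtp and chr11:58214888-58214947 on the plus strand for Irgm2. Isg15 holds 3 overlapping matches that begin 78 bases before the start and Oas1a 2 that begin 20 bases before it. The others shown hold 1 each, beginning 213 bases before the start of Cxcl10, 34 before Igtp and 64 before Irgm2. Among 1085 genes higher at an unadjusted p under 0.05 with a promoter at hand, 7.74% held the core, and among 863 lower ones 2.43%. Gbp2 also held the core. Ifit2 and Zbp1 were not among the genes with a match, and whether each had a promoter sequence at hand is not given here. A match describes these letters and not the binding of a factor.

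The GTPases of the Gbp and Irg families, which attack the vacuoles of intracellular parasites and respond mainly to interferon gamma, were higher in the olaparib group in 17 of 17 members, with a median of 2.14 (2.61 within series 450 and 2.75 within the title number). Irgm2 had 106, 69.7 and 62.1 CPM with olaparib and 56.4, 5.87, 11.03 and 10.6 CPM in controls, a change of 2.36 (SE 0.62) at adjusted p = 0.105. Igtp had 128, 79.97 and 68.2 CPM with olaparib and 67.95, 5.43, 14.6 and 14.2 CPM in controls, and its lowest olaparib library and control 1 were level. Gbp2 had 259, 161 and 126 CPM with olaparib and 141, 14.4, 28.5 and 31.2 CPM in controls, so that control 1 lay inside the olaparib range. Only 3 of the 17 separated the groups in every library, against 12.7% of all genes, and 13 had an unadjusted p under 0.05. Without control 2 the median was 1.34 with 4 such members, and without olaparib 1 there were 8. These genes lie in families of close copies, so their reads may be divided between copies.

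In the pathway that leads from DNA to interferon, several sensors separated the groups, while Cgas, Sting1 and Tbk1 did not. Cgas, the DNA sensor, had 21.5, 20.7 and 17.6 CPM with olaparib and 20.6, 14.2, 9.23 and 8.28 CPM in controls, a change of 0.59 (SE 0.27) at adjusted p = 0.288, with control 1 inside the olaparib range. Sting1, its adaptor, had 69.1, 60.96 and 52.2 CPM with olaparib and 50.2, 52.6, 58.1 and 59.9 CPM in controls, and changed by 0.12 (SE 0.28). Tbk1, the kinase that STING activates, had 36.9, 38.2 and 34.1 CPM with olaparib and 41.1, 33.2, 34.99 and 37.5 CPM in controls. The sign of the Tbk1 change, -0.02, turned without control 1 or olaparib 3. Other sensors were higher in every olaparib library than in any control. Zbp1, a sensor of Z-form nucleic acid, had 48.1, 29.3 and 25.2 CPM with olaparib and 25.1, 6.34, 7.35 and 7.23 CPM in controls, a change of 1.66 (SE 0.46) at adjusted p = 0.112. Tlr9, the endosomal receptor for CpG DNA, had 13.5, 5.83 and 4.01 CPM with olaparib and 3.11, 0.684, 1.37 and 0.975 CPM in controls, a change of 2.26 (SE 0.57). Ifi204, a DNA sensor of a family with close copies, had 43.3, 29.1 and 21.9 CPM with olaparib and 17.7, 4.90, 9.80 and 6.07 CPM in controls, a change of 1.76 (SE 0.49). Zbp1 and Ifi204 are themselves induced by interferon, and for Zbp1 the lowest olaparib library was level with control 1. Of the 23 tested members of the sensing list, 19 had a positive change, with a median of 0.81 (0.95 within series 450 and 1.01 within the title number), 13 had an unadjusted p under 0.05 and 0 passed the adjusted threshold. The ligand genes Ifnb1 and Ifng are not analysed here.

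Receptors and regulators of the interferon pathway varied less. Irf1, a transcription factor induced by interferon gamma, had 142, 126 and 112 CPM with olaparib and 117, 56.1, 51.5 and 47.5 CPM in controls, with control 1 among the olaparib libraries. Socs1, the feedback inhibitor of the JAK kinases, had 4.39, 4.42 and 3.95 CPM with olaparib and 3.30, 0.646, 0.811 and 0.616 CPM in controls, a change of 1.95 (SE 0.60) at adjusted p = 0.131. Both genes thus showed control 1 near the olaparib level and the other controls well below it. Of 16 tested ligands, receptors and transducers, 12 had a positive change, with a median of 0.29 (0.30 within series 450 and 0.32 within the title number).

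**Figure D2:**
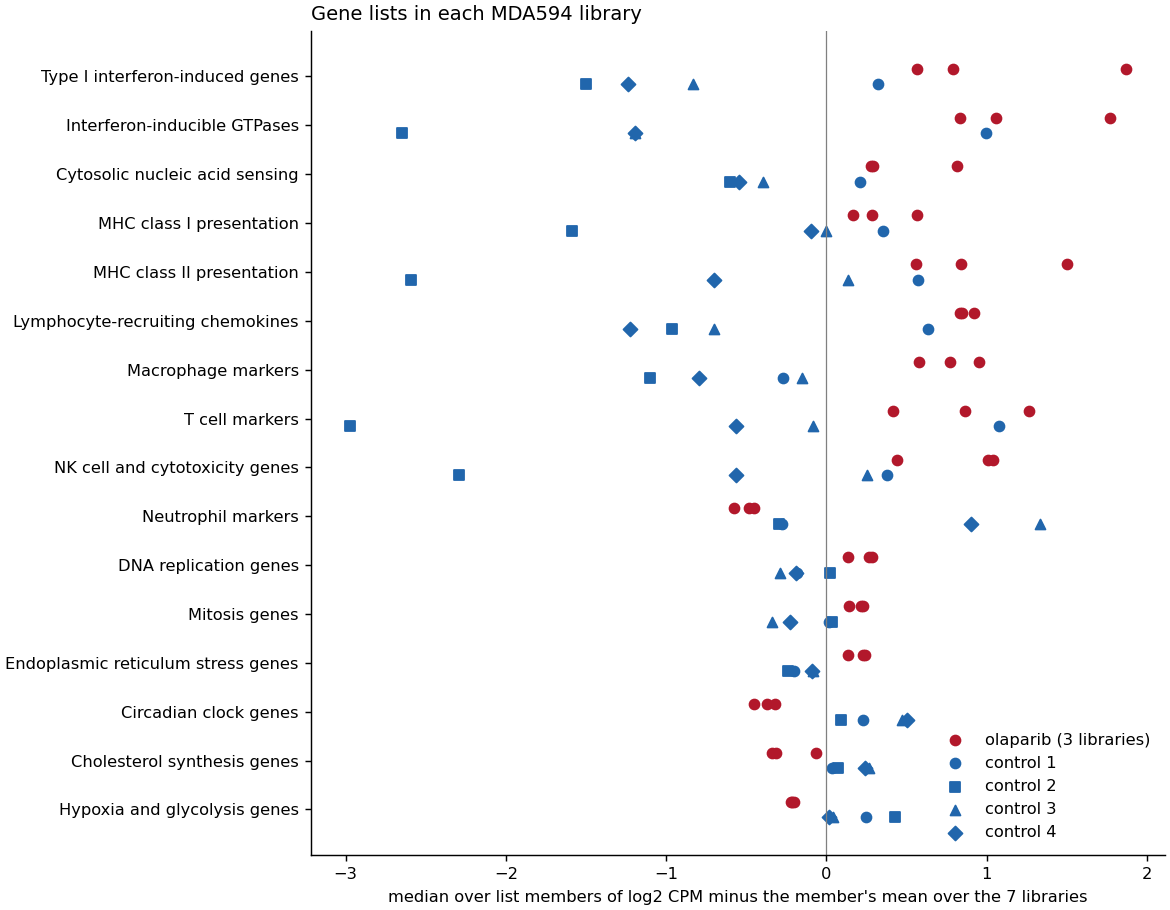
Each point is the median, over the tested members of a gene list, of log2 CPM in a library minus the member's mean over the 7 MDA594 libraries; red circles are the 3 olaparib libraries and blue symbols the 4 controls. For the interferon-induced genes the olaparib libraries lie at 0.56 to 1.87 and the controls at -1.50 to 0.32, while for the clock genes the order is turned round.

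Chemokines that recruit lymphocytes were also higher in control 1 than in the other controls. Their summed level was 361, 302 and 275 CPM with olaparib and 224, 49.03, 65.3 and 44.6 CPM in controls. Cxcl9, which like Cxcl10 binds CXCR3 and responds to interferon gamma, had 120.5, 114 and 91.1 CPM with olaparib and 98.7, 2.53, 8.67 and 7.48 CPM in controls, so that control 1 reached the olaparib level. Cxcl16, a membrane-bound chemokine, had 98.3, 61.4 and 42.1 CPM with olaparib and 33.5, 15.5, 29.8 and 18.4 CPM in controls, a change of 1.39 (SE 0.38) at adjusted p = 0.109. Of 13 tested members 12 had a positive change and 6 an unadjusted p under 0.05, Cxcl10 being the 1 past the adjusted threshold. The median was 1.49 (2.13 with 12 such members within series 450, and 1.90 with 11 within the title number). Without control 1 it was 2.24 with 10 members at an unadjusted p under 0.05, and without control 2 there were 3.

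Antigen presentation was more dependent on control 2. Class I genes, which show peptides to CD8 T cells, summed to 10386, 6534 and 8258 CPM with olaparib and 8501, 2293, 8944 and 8309.7 CPM in controls, so that only control 2 stood apart. All 20 tested class I members had a positive change, with 7 at an unadjusted p under 0.05 and a median of 0.61 (0.51 with 11 such members within series 450, and 0.57 with 9 within the title number). Without control 2 the median was 0.28 with 2 such members, and there were 2 without olaparib 1 and 3 without olaparib 3. A pair of interferon-induced proteasome genes separated the groups. Psme2, a subunit of the proteasome activator PA28, had 83.8, 90.4 and 66.6 CPM with olaparib and 57.7, 41.6, 41.9 and 40.97 CPM in controls, a change of 0.77 (SE 0.19) at adjusted p = 0.101. Psmb10, a catalytic subunit of the immunoproteasome, had 49.5, 38.9 and 36.9 CPM with olaparib and 33.7, 14.7, 18.8 and 16.7 CPM in controls, a change of 1.01 (SE 0.27). Class II genes, used by professional antigen-presenting cells, summed to 4066, 2449 and 1885 CPM with olaparib and 1814, 173, 1499 and 855 CPM in controls. Ciita, the master activator of class II, had 42.8, 35.3 and 28.4 CPM with olaparib and 32.8, 2.34, 9.34 and 6.51 CPM in controls. The class II median of 1.67 (1.31 within series 450 and 1.54 within the title number) over 10 members, 7 of them at an unadjusted p under 0.05, became 0.87 with 0 such members without control 2, and 4 such members without olaparib 1.

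Markers of host immune cells moved with these genes, and in bulk tumour RNA fewer cells of a type and less RNA per cell cannot be told apart. Macrophage markers summed to 2158, 1580.2 and 1992 CPM with olaparib and 949, 694, 1299.9 and 788 CPM in controls, with every olaparib library above every control. Cd68, a lysosomal protein of macrophages, had 59.2, 40.6 and 45.9 CPM with olaparib and 20.6, 18.4, 18.9 and 11.1 CPM in controls, a change of 1.47 (SE 0.39) at adjusted p = 0.108. Adgre1, which encodes the macrophage marker F4/80, had 48.9, 31.04 and 37.3 CPM with olaparib and 14.5, 14.1, 11.6 and 7.69 CPM in controls, a change of 1.67 (SE 0.45). Of 20 tested macrophage markers 19 had a positive change, 14 an unadjusted p under 0.05, against 8.71% of all genes, and 13 had every olaparib library above every control, against 12.7%. The list's median was 1.37 (1.26 within series 450 and 1.33 within the title number). Control 1, which stood apart in interferon-induced genes, was close to controls 2 and 3 in Cd68 and Adgre1. For dendritic cell markers the median was 1.69 (1.79 within series 450 and 2.02 within the title number), and 12 of 13 changes were positive. Itgax, which encodes CD11c, had 125, 72.7 and 54.3 CPM with olaparib and 37.2, 10.6, 23.7 and 12.6 CPM in controls, a change of 2.01 (SE 0.47) at adjusted p = 0.0951. How far these cell markers account for Clec7a, Ms4a4c, Cxcl10 or the interferon lists was not tested.

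T cell and NK cell genes were at low levels and depended on control 2. The T cell receptor subunit gene Cd3e had 4.08, 3.27 and 1.998 CPM with olaparib and 3.83, 0.133, 1.43 and 0.859 CPM in controls, and control 1 lay inside the olaparib range. The coreceptor gene Cd8a had 9.88, 6.12 and 2.68 CPM with olaparib and 7.40, 0.266, 2.42 and 1.92 CPM in controls, again with control 1 inside the olaparib range. The coreceptor gene Cd4 had 9.75, 6.45 and 7.07 CPM with olaparib and 4.86, 1.06, 3.08 and 1.51 CPM in controls, with no overlap. All 20 tested T cell markers had a positive change, 3 at an unadjusted p under 0.05, with a median of 1.48 (1.16 with 5 such members within series 450, and 1.40 with 5 within the title number). Over all 16330 genes, 7161 and 5673 had such a p, in either direction, in those fits. Without control 2 the median was 0.56 with 1 such member, and without control 1 it was 2.19 with 15. Klrk1, which encodes the activating receptor NKG2D, had 7.41, 6.91 and 3.53 CPM with olaparib and 3.78, 0.342, 2.35 and 1.36 CPM in controls, a change of 1.95 (SE 0.79) at adjusted p = 0.224. Prf1, the pore-forming protein of cytotoxic granules, had 1.07, 1.16 and 1.28 CPM with olaparib and 0.867, 0.513, 1.18 and 0.449 CPM in controls, a change of 0.76 (SE 0.95). The groups overlapped for Klrk1 and Prf1. The 12 NK cell and cytotoxicity genes summed to 48.5, 44.6 and 28.05 CPM with olaparib and 28.8, 5.68, 27 and 14.04 CPM in controls, with a median change of 1.35 (1.05 within series 450 and 1.34 within the title number). Of these 12, 3 had an unadjusted p under 0.05, 0 without control 2, 7 without control 1, 5 without control 3 and 1 without olaparib 1, and the median without control 2 was 0.75. The NK cell receptor gene Ncr1 is not analysed here.

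Ligands of NK cell receptors had a positive change in 8 of 9 tested genes, with 5 at an unadjusted p under 0.05, 5 with every olaparib library above every control and a median of 1.28 (1.38 with 8 such members within series 450, and 1.51 with 6 within the title number), which was 0.80 without control 2. Raet1d, a ligand of NKG2D, had 1.41, 2.83 and 1.61 CPM with olaparib and 1.35, 0.703, 0.649 and 0.321 CPM in controls, a change of 1.35 (SE 0.48) at adjusted p = 0.168. Ulbp1, another NKG2D ligand present at a higher level, had 34.8, 37.3 and 48.9 CPM with olaparib and 33.9, 35.97, 30.4 and 27.6 CPM in controls, a change of 0.34 (SE 0.20) with overlapping groups. Cd48, the ligand of CD244, had 11.6, 9.94 and 8.13 CPM with olaparib and 5.05, 2.68, 3.12 and 1.78 CPM in controls, a change of 1.64 (SE 0.49). Raet1d and Cd48 were above every control in each olaparib library. Among immune checkpoint genes, Cd274, which encodes PD-L1, had 27.96, 22.2 and 17.7 CPM with olaparib and 21.6, 3.29, 7.003 and 4.64 CPM in controls, with control 1 inside the olaparib range. Lgals9, which encodes galectin 9, had 92.4, 40.8 and 36.9 CPM with olaparib and 21.4, 9.49, 19.9 and 14.02 CPM in controls, a change of 1.71 (SE 0.45) at adjusted p = 0.105. Of 10 tested checkpoint genes 9 had a positive change and 4 an unadjusted p under 0.05, and the list's median of 0.86 (0.92 within series 450 and 1.17 within the title number) became 0.41 without control 2.

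Neutrophil markers went the other way. S100a9, a calcium-binding protein abundant in neutrophils, had 3.999, 5.62 and 3.96 CPM with olaparib and 10.8, 12.3, 41.7 and 22.9 CPM in controls, a change of -1.98 (SE 0.68) at adjusted p = 0.160. Retnlg, another neutrophil gene, had 0.108, 0.0998 and 0.234 CPM with olaparib and 0.211, 0.987, 9.48 and 3.49 CPM in controls. Controls 3 and 4, from 1 host code, had the highest levels of S100a9 and Retnlg, and control 1 lay inside the olaparib range for Retnlg. Of 13 tested neutrophil markers 12 had a negative change, 3 at an unadjusted p under 0.05, with a median of -0.45 (-1.01 with 8 such members within series 450, and -1.33 with 8 within the title number). The median was -0.66 without control 2, -0.27 without control 3 and -0.29 without olaparib 2, and the 3 became 5 without control 1.

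Other host tissues differed in single libraries. Skeletal muscle markers summed to 6.48, 5.38 and 1681 CPM with olaparib and 5.43, 4.25, 7.65 and 5.95 CPM in controls, so that olaparib 3 held nearly all of this RNA. Acta1, the skeletal muscle actin, had 0.208, 0.137 and 448 CPM with olaparib and 0.0423, 0.361, 0.149 and 0.423 CPM in controls. The same library was highest in the fibroblast list, at 1847, 1675 and 3604 CPM with olaparib and 1241, 1369, 1956 and 1029.6 CPM in controls, and in the endothelial list, at 243, 300.1 and 442 CPM with olaparib and 232, 197, 315 and 161 CPM in controls. The muscle median of 3.97 (2.25 within series 450 and -0.37 within the title number) was -0.26 without olaparib 3. The fibroblast median of 0.81 (0.51 within series 450 and 0.28 within the title number) was 0.36 without that library, and the endothelial median of 0.70 (0.32 within series 450 and 0.11 within the title number) was 0.39. Control 1 held 340.4 CPM of B and plasma cell markers, of which 125 CPM were the light-chain gene Igkc, at 1.37 CPM or less in the other 6 libraries. Xbp1, which epithelial cells also make, gave 139 CPM of that sum and was at a like level in every library. The median change of the 6 markers was -0.11 (1.46 within series 450 and 1.77 within the title number) and 1.27 without control 1.

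**Figure D3:**
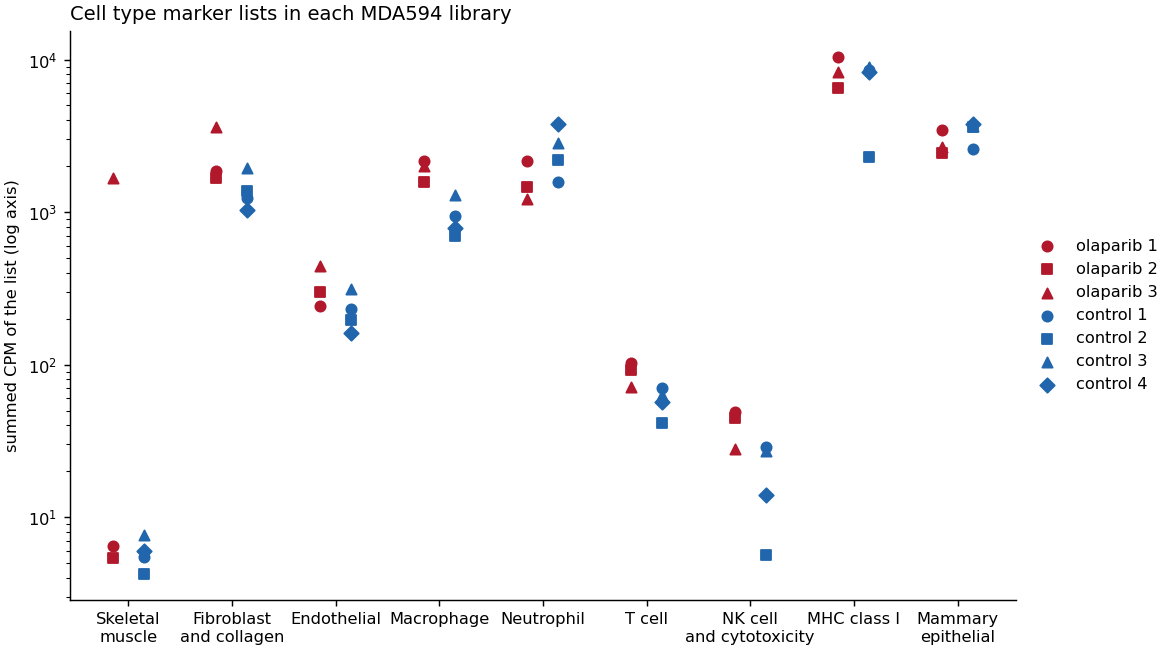
Summed CPM on a log axis of 9 marker lists in each of the 7 libraries, olaparib in red on the left of each list and control in blue on the right, with a symbol for each library. Olaparib 3 stands apart in skeletal muscle at 1681 CPM, control 2 in MHC class I at 2293 CPM, and macrophage markers are higher in every olaparib library than in any control.

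Endoplasmic reticulum stress genes, which refold or clear misfolded proteins, had small and even differences. The list's median was 0.37 (0.40 within series 450 and 0.35 within the title number), 18 of 23 members had a positive change, 11 had an unadjusted p under 0.05, against 8.71% of all genes, and for 14 every olaparib library was above every control, against 12.7% of all genes. Hspa5, the main chaperone of the compartment, had 1867, 1716 and 2002 CPM with olaparib and 1168, 972, 1364 and 1361 CPM in controls, a change of 0.67 (SE 0.21) at adjusted p = 0.137. Dnajb11, a cochaperone of HSPA5, had 144, 125 and 154 CPM with olaparib and 85.02, 80.6, 104 and 93.7 CPM in controls, a change of 0.67 (SE 0.15) at adjusted p = 0.0829. Sdf2l1, which works with Dnajb11, had 31.9, 28.4 and 32.8 CPM with olaparib and 21.02, 15.3, 16.5 and 16.1 CPM in controls, a change of 0.86 (SE 0.23). With Creld2, these genes separated the groups in every library and control 1 was not high among the controls of Hspa5, Dnajb11 or Creld2. Without any 1 library the count of 11 ran from 8 to 13.

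The endoplasmic reticulum stress element, CCAAT, then 9 bases of any kind, then CCACG, is bound by ATF6 with the factor NF-Y. On either strand of the 250 bases before the start it was found in 9 of 20 genes of this list with a promoter at hand, against 18 of 11257 tested genes, or 0.16%. The matches are in capitals for Hspa5 and, read on the opposite strand, for Creld2, the gene of the list that passed the threshold.
Hspa5: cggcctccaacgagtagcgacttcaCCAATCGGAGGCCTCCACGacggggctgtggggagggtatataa
Creld2: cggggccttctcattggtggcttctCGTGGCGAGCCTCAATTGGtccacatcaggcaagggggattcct
The RefSeq positions on GRCm38.p6 are chr2:34772000-34772068 on the plus strand for Hspa5 and chr15:88819495-88819563 on the plus strand for Creld2, and the matches begin 65 and 126 bases before the start. Neither element was found to overlap the interferon core in the stretches shown. Dnajb11 and Sdf2l1 were not among the 9 genes with a match, and whether each had a promoter sequence at hand is not given here.

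Circadian clock genes were lower in the olaparib group across the output and repressor arms. The clock is a loop in which CLOCK and BMAL1 activate the Per, Cry and Nr1d genes, whose products repress the loop. Of 21 tested members 19 had a negative change, 12 had an unadjusted p under 0.05 on the lower side (8.07% of all genes), 12 had every olaparib library below every control (12.2% of all genes), and Rora and Dbp passed the adjusted threshold. Nr1d1, the repressor REV-ERB alpha, had 21.99, 17.97 and 15.8 CPM with olaparib and 38.5, 48.1, 47.6 and 59.8 CPM in controls, a change of -1.38 (SE 0.27) at adjusted p = 0.0566. Per2, a repressor of CLOCK and BMAL1, had 17.4, 11.2 and 14.2 CPM with olaparib and 27.02, 17.4, 39.4 and 47.2 CPM in controls, a change of -1.04 (SE 0.31), with control 2 inside the olaparib range. The list's median was -0.70 (-0.72 within series 450 and -0.77 within the title number), and between -0.77 and -0.65 without any 1 library, with 12 members at an unadjusted p under 0.05 in each fit without 1 library. The labels give no time of day at which tumours were taken, so the hour of collection and olaparib cannot be told apart for these genes.

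DNA replication genes had small positive changes in 32 of 33 members, 10 at an unadjusted p under 0.05 (8.71% of all genes), with a median of 0.30 (0.43 with 20 such members within series 450, and 0.43 with 16 within the title number). In 15 of them every olaparib library was above every control, against 12.7% of all genes. Orc1, a subunit of the complex that marks replication origins, had 6.31, 6.48 and 7.21 CPM with olaparib and 2.83, 3.48, 2.66 and 2.96 CPM in controls, a change of 1.16 (SE 0.25) at adjusted p = 0.0681. Cdc6, which loads the replicative helicase with that complex, had 28.1, 32.7 and 31.6 CPM with olaparib and 17.9, 18.7, 9.48 and 9.05 CPM in controls, a change of 1.16 (SE 0.30). Pcna, the sliding clamp of DNA polymerases, had 224, 291 and 233 CPM with olaparib and 149, 192, 138 and 136 CPM in controls, a change of 0.67 (SE 0.19). For Cdc6 and Pcna, controls 3 and 4 were the lowest libraries. The 10 members at an unadjusted p under 0.05 became 6 without olaparib 3, where the count over all tested genes, of either sign, fell from 2740 to 1567. Among 30 mitosis genes 26 changes were positive and 4 had an unadjusted p under 0.05, a share not far from the 8.71% of all genes, and the median was 0.32 (0.48 with 19 such members within series 450, and 0.44 with 13 within the title number). The 4 became 2 without olaparib 2 and 1 without olaparib 3, fits with 2428 and 1567 such genes, of either sign, over all tested genes. In 13 of the 30 every olaparib library was above every control, against 12.7% of all genes. Nuf2, a kinetochore protein, had 71.3, 81.99 and 82.6 CPM with olaparib and 59.5, 63.01, 35.96 and 35.7 CPM in controls, a change of 0.69 (SE 0.24). Mki67, the usual marker of cycling cells, had 741, 647 and 838 CPM with olaparib and 876, 682, 721 and 923 CPM in controls, with groups that overlapped and a change of -0.08 (SE 0.26), whose sign turned with quantile normalisation, or once library-name series were modelled.

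The drug's targets and the repair genes gave no call. Parp1 had 122, 121 and 137 CPM with olaparib and 101, 143, 93.4 and 103 CPM in controls, and Parp2 had 24.1, 26.8 and 23.3 CPM with olaparib and 26.2, 20.8, 20.1 and 23.7 CPM in controls. The changes, 0.21 (SE 0.22) for Parp1 and 0.11 (SE 0.19) for Parp2, were each smaller than their SE. Parg, the enzyme that removes the polymers PARP1 makes, had 31.9, 30.3 and 32.3 CPM with olaparib and 20.3, 28.4, 27.2 and 27.8 CPM in controls, a change of 0.31 (SE 0.16) at adjusted p = 0.329, with control 1 below the other controls. Brca1, a core factor of homologous recombination, had 47, 42.5 and 46.6 CPM with olaparib and 52.5, 34.1, 23.96 and 26.8 CPM in controls, and Brca2, another factor of that pathway, had 71.8, 63.7 and 67.7 CPM with olaparib and 68.2, 71.95, 68.99 and 79.1 CPM in controls. Brca1 was highest in control 1, and the groups overlapped for both. Rbbp8, which encodes the end-resection factor CtIP, had 45.5, 51.9 and 46.1 CPM with olaparib and 27.8, 36.2, 24.7 and 25.4 CPM in controls, a change of 0.72 (SE 0.22) at adjusted p = 0.121. Of 21 tested homologous recombination genes 14 had a positive change, with 4 higher and 1 lower at an unadjusted p under 0.05, and a median of 0.27 (0.51 with 14 such members within series 450, and 0.46 with 13 within the title number). The 4 became 9 without control 1, where the median was 0.42, and 2 without olaparib 3. Over all tested genes, of either sign, 2740 became 3266 and 1567 in these fits.

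Targets of p53 were divided. Aen, a nuclease induced by p53, had 25.1, 27.97 and 29.9 CPM with olaparib and 13.2, 13.9, 15.1 and 14.3 CPM in controls, a change of 0.99 (SE 0.28) at adjusted p = 0.114. Tigar, which lowers glycolytic flux, had 12.9, 12.3 and 13.3 CPM with olaparib and 7.53, 9.36, 7.60 and 6.95 CPM in controls, a change of 0.70 (SE 0.18). Cdkn1a, which encodes the cell cycle inhibitor p21, had 23.5, 13.7 and 33.96 CPM with olaparib and 12.6, 11.5, 15.5 and 17.7 CPM in controls, a change of 0.76 (SE 0.41). Aen and Tigar separated the groups, whereas olaparib 2 lay inside the control range for Cdkn1a. Mdm2, the ubiquitin ligase of p53, had 44.7, 45.5 and 48.2 CPM with olaparib and 50.2, 45.6, 42.2 and 41.1 CPM in controls, and its change of 0.04 (SE 0.12) turned sign without olaparib 3. Of 28 tested targets 16 had a positive change, with 7 higher and 2 lower at an unadjusted p under 0.05. The median was 0.22 (0.18 within series 450 and 0.14 within the title number), and the 7 became 2 without olaparib 3. Over all tested genes, of either sign, 2740 became 1567 without that library.

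Hypoxia and cholesterol synthesis genes had mostly negative changes. Among 27 hypoxia and glycolysis genes 23 had a negative change, with a median of -0.38 (-0.27 within series 450 and -0.24 within the title number), and 10 had an unadjusted p under 0.05. Bnip3, a mitophagy receptor induced by HIF1, had 96.5, 134 and 94.8 CPM with olaparib and 197, 278, 207 and 248 CPM in controls, a change of -1.13 (SE 0.25) at adjusted p = 0.0783. Pdk1, which blocks entry of pyruvate into the citric acid cycle, had 114, 116 and 133 CPM with olaparib and 210.2, 204, 191 and 189.7 CPM in controls, a change of -0.71 (SE 0.20). Both genes were lower in every olaparib library than in any control. Among 21 cholesterol synthesis genes 19 had a negative change, 8 at an unadjusted p under 0.05, with a median of -0.30 (-0.49 with 16 such members within series 450, and -0.57 with 17 within the title number). Lss, which closes the sterol rings, had 31.6, 28.2 and 40.7 CPM with olaparib and 62.4, 51.4, 67.8 and 66.6 CPM in controls, a change of -0.84 (SE 0.25), and Mvd, an enzyme of the mevalonate pathway, had 11.5, 13.3 and 11.4 CPM with olaparib and 20.6, 21.6, 19.3 and 20.5 CPM in controls, a change of -0.79 (SE 0.23). All 13 mitochondrially encoded genes had a negative change, with a median of -0.61 (-0.68 within series 450 and -0.72 within the title number) and 0 at an unadjusted p under 0.05; with quantile normalisation the median was -0.19.

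The drug efflux pump genes Abcb1a and Abcb1b, close copies that together encode mouse P-glycoprotein, were low in all libraries. Abcb1b had 4.94, 4.99 and 3.95 CPM with olaparib and 2.09, 0.893, 2.001 and 2.40 CPM in controls, a change of 1.44 (SE 0.44) at adjusted p = 0.129. Abcb1a had 2.41, 1.46 and 1.53 CPM with olaparib and 0.994, 0.437, 0.906 and 0.667 CPM in controls, a change of 1.28 (SE 0.48). The lowest olaparib library was above the highest control for both, and reads may be divided between the copies. The median over 8 tested efflux genes was 0.15 (-0.09 within series 450 and -0.09 within the title number), and 0.03 to 0.23 without any 1 library.

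Several further genes of epithelial, adhesion and cytokine roles differed without passing the adjusted threshold. Kit, the stem cell factor receptor found on luminal progenitor cells of the mammary gland, had 182, 134 and 154 CPM with olaparib and 349, 287, 245 and 269 CPM in controls, a change of -0.90 (SE 0.33) at adjusted p = 0.179. Elf5, a transcription factor of the same progenitors, had 57.03, 31.5 and 26.7 CPM with olaparib and 50.5, 65.3, 86.5 and 96.9 CPM in controls, a change of -0.99 (SE 0.40), with control 1 inside the olaparib range. Erbb2, the HER2 receptor, had 110.0, 75.4 and 95.3 CPM with olaparib and 129.6, 136, 133 and 140.3 CPM in controls, a change of -0.53 (SE 0.28). Kit and Erbb2 were lower in each olaparib library than in any control, while of 20 tested mammary epithelial markers 10 had a positive and 10 a negative change. Axl, a receptor tyrosine kinase linked to mesenchymal states and also made by macrophages, had 109, 73.1 and 73.9 CPM with olaparib and 42.2, 20.5, 40.3 and 25.6 CPM in controls, a change of 1.44 (SE 0.36) at adjusted p = 0.101. Vcam1, the adhesion molecule that binds integrin VLA-4, had 92.7, 63.99 and 83.9 CPM with olaparib and 24.7, 13.3, 48.2 and 43.5 CPM in controls, a change of 1.58 (SE 0.40). Il1a, an inflammatory cytokine, had 3.25, 2.83 and 2.03 CPM with olaparib and 0.867, 0.836, 0.933 and 0.987 CPM in controls, a change of 1.51 (SE 0.40). For Axl, Vcam1 and Il1a every olaparib library was above every control, and the controls of Il1a were nearly level.

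Oxidant defence and end-joining genes were divided. Txnrd1, thioredoxin reductase, had 115, 121 and 122 CPM with olaparib and 65.9, 88.1, 65.2 and 70.5 CPM in controls, a change of 0.72 (SE 0.18) at adjusted p = 0.102. Nfe2l2, which encodes the regulator NRF2, had 63.1, 60.2 and 48.8 CPM with olaparib and 35.9, 35.7, 41.5 and 35.2 CPM in controls, a change of 0.61 (SE 0.18). Slc7a11, the cystine importer, had 6.93, 6.88 and 5.62 CPM with olaparib and 3.17, 2.09, 3.23 and 3.82 CPM in controls, a change of 1.11 (SE 0.36). These genes separated the groups, yet 14 of 22 tested members of the NRF2 and glutathione list had a positive change and 4 an unadjusted p under 0.05, with a median of 0.28 (0.11 within series 450 and 0.07 within the title number). Hsph1, a heat shock chaperone, had 75.9, 81.8 and 75.3 CPM with olaparib and 55.5, 59.2, 12.8 and 12.7 CPM in controls, a change of 1.33 (SE 0.63), and here controls 3 and 4, of 1 host code, were far below controls 1 and 2. Among end-joining genes, Lig4, the DNA ligase of that pathway, had 15.9, 16.3 and 16.8 CPM with olaparib and 11.9, 11.2, 9.10 and 8.72 CPM in controls, a change of 0.66 (SE 0.16) at adjusted p = 0.101. Dynll1, which limits end resection, had 129.8, 193 and 136 CPM with olaparib and 90.2, 101, 67.5 and 64.6 CPM in controls, a change of 0.86 (SE 0.24). Both were higher in every olaparib library, although only 6 of 16 tested end-joining and shieldin genes had a positive change, with a median of -0.07 (0.01 within series 450 and 0.05 within the title number).

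The response was then set beside those of the resistant tumours, which share no library with it; differences in response are OR1 or OR2 minus MDA594. No gene passed an adjusted p of 0.05 for a difference in response between OR1 and MDA594 or between OR2 and MDA594, and at an unadjusted p under 0.05 there were 1197 (7.33%) and 1006 (6.16%). Olaparib called 0 genes in OR1 and 0 in OR2, with 959 (5.87%, 4.29% higher and 1.59% lower) and 1084 (6.64%, 3.28% higher and 3.36% lower) at an unadjusted p under 0.05. These counts depend on how library-name series, title numbers and shared codes enter the fit. Within series 450 the difference in response was called for 963 genes for OR2. The only OR1 control in that series is library 3, so no conclusion is drawn from an OR1 count there. That count is listed only at the end, among the processing settings. A term for the title number gave 1178 for OR1 and 302 for OR2. Olaparib itself called 146 higher and 217 lower genes in OR2 within series 450, and 35 higher and 40 lower with the title number. OR2 had 6 higher and 7 lower calls with no correlation within a code. OR1 had 0 calls with the title number and 0 with no correlation within a code. Across the 16330 genes the MDA594 changes had a Pearson correlation of 0.311 with the OR1 changes and 0.217 with the OR2 changes, as a description. All 20 genes called in MDA594 had smaller changes in OR1 and in OR2, which their choice on MDA594 favours, and 16 of 20 kept their sign in each. Over all tested genes the sign was shared by 55.99% in OR1 and 62.04% in OR2. Among the 2740 genes at an unadjusted p under 0.05 in MDA594 it was shared by 68.21% and 73.65%.

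Interferon-induced genes had a median change of 1.82 in MDA594, 1.43 in OR1 and -0.28 in OR2. The OR2 response was lower than that of MDA594 at an unadjusted p under 0.05 for 31 of 40 members, against 3.05% of all genes, and the OR1 response for 1 of 40, against 4.16%. Isg15 changed by 2.50 (SE 0.52) in MDA594, against 1.42 (SE 0.52) in OR1 and -0.59 (SE 0.63) in OR2. Cxcl10 changed by 2.85 (SE 0.53) in MDA594, against 1.67 (SE 0.53) in OR1 and 0.11 (SE 0.64) in OR2. Class II genes did not share this order, with medians of 1.67 in MDA594, 1.14 in OR1 and 2.03 in OR2. The 2 OR2 controls carry 1 host code, so the OR2 response rests on 1 control mouse.

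**Figure D4:**
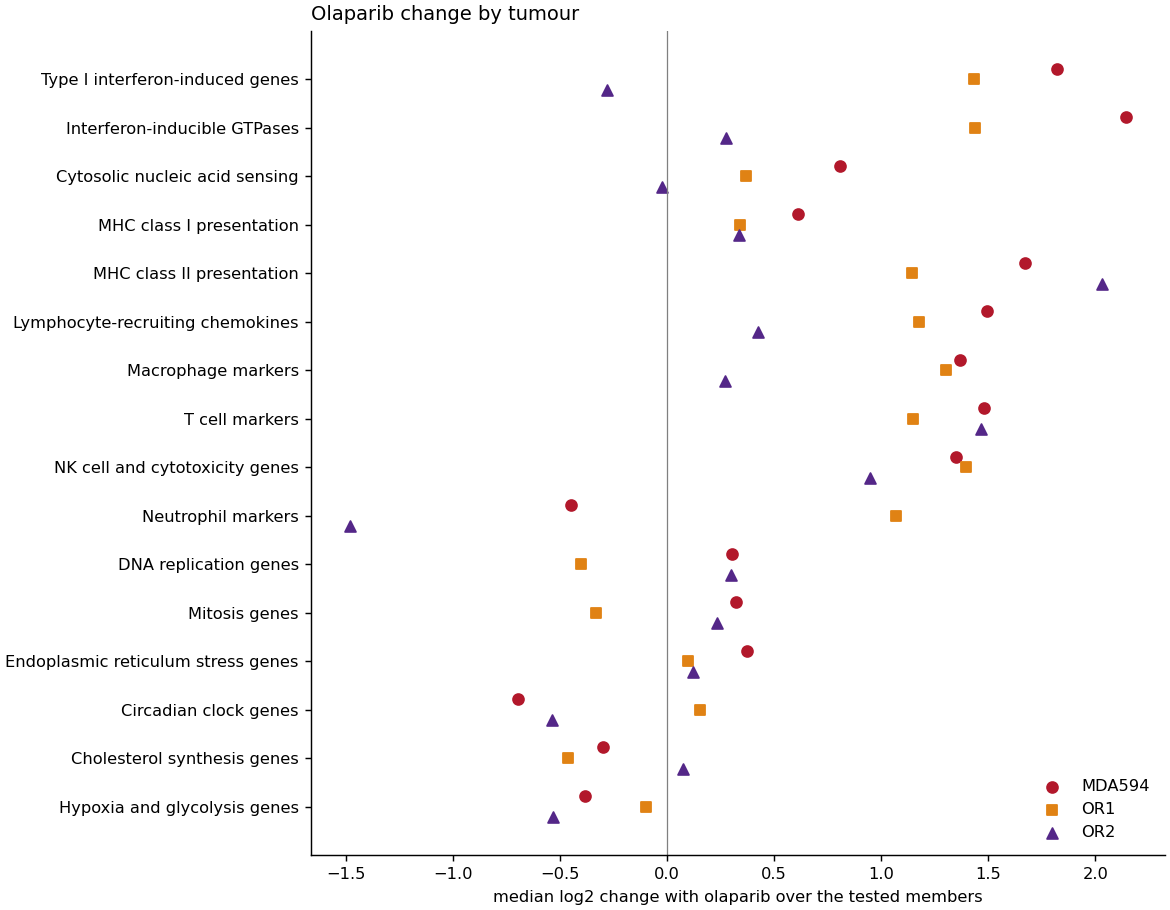
Median log2 change with olaparib over the tested members of 16 gene lists in MDA594 (red circles), OR1 (orange squares) and OR2 (purple triangles), each tumour against its own controls. Interferon-induced genes stand at 1.82 in MDA594, 1.43 in OR1 and -0.28 in OR2, and DNA replication genes at 0.30 in MDA594, -0.40 in OR1 and 0.30 in OR2.

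DNA replication genes had a median change of 0.30 in MDA594, against -0.40 in OR1 and 0.30 in OR2. The OR1 response was lower than that of MDA594 at an unadjusted p under 0.05 for 25 of 33 members, against 4.16% of all genes, and the OR2 response for 3 of 33, against 3.05%. Orc1 changed by 1.16 (SE 0.25) in MDA594, against -0.12 (SE 0.25) in OR1 and 0.26 (SE 0.30) in OR2. Cdc6 changed by 1.16 (SE 0.30) in MDA594, against -0.34 (SE 0.30) in OR1 and 0.24 (SE 0.37) in OR2. Mitosis genes had medians that were positive in MDA594 and OR2 and negative in OR1, at 0.32 in MDA594, -0.33 in OR1 and 0.23 in OR2. Clock genes had a median of -0.70 in MDA594, against 0.15 in OR1 and -0.54 in OR2, and for 8 of 21 the OR1 response was higher than that of MDA594 at an unadjusted p under 0.05, against 3.17% of all genes. Rora changed by -1.19 (SE 0.19) in MDA594, against 0.23 (SE 0.19) in OR1 and -0.55 (SE 0.23) in OR2. Dbp changed by -1.43 (SE 0.25) in MDA594, against 0.18 (SE 0.25) in OR1 and -1.05 (SE 0.30) in OR2. A change above 0 was seen for 12 of 21 clock genes in OR1 and 2 of 21 in OR2, and for 0 of 33 replication genes in OR1 and 30 of 33 in OR2.

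**Figure D5:**
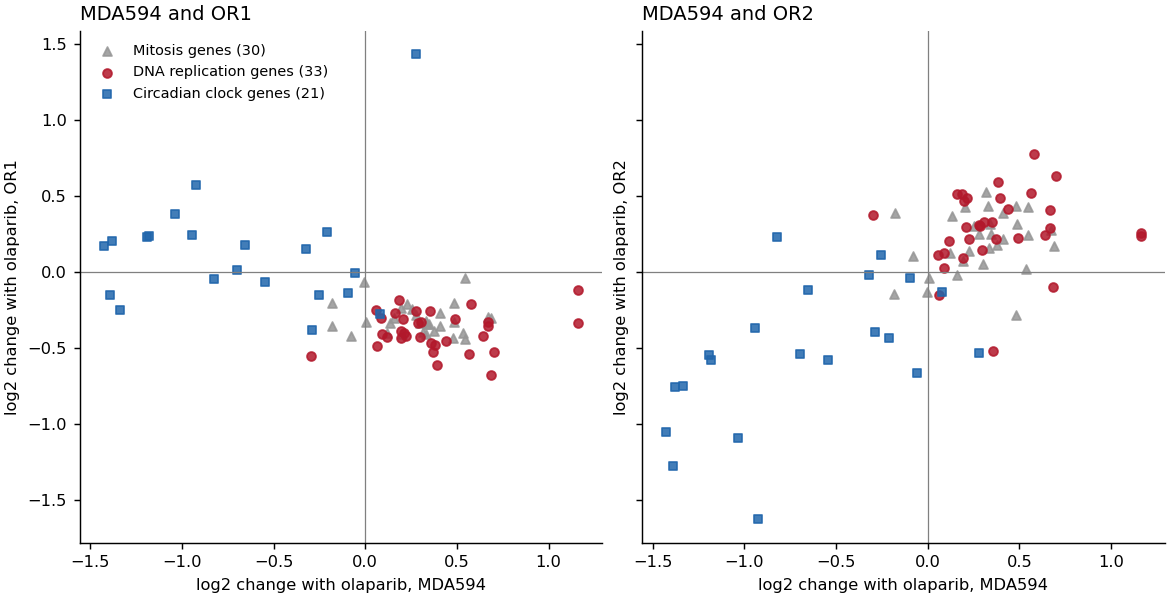
Log2 change with olaparib in MDA594 (x axis) against OR1 (left panel, y axis) and OR2 (right panel, y axis) for 30 mitosis genes (grey triangles), 33 DNA replication genes (red circles) and 21 circadian clock genes (blue squares); lines mark 0. In OR1 all replication and mitosis genes lie below 0, and in OR2 most replication genes lie above 0 and most clock genes below it.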

How the data were processed

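RNA was extracted with RNeasy columns and made into libraries with a KAPA stranded kit, per the labels' protocols. The deposited values are log2 CPM made by the authors. Per the submitters' processing notes, the build was GRCm39 and the tools were RSEM 1.3.1, STAR 2.7.10a and limma, whose version is not given. The authors' filter on genes and the annotation are not given in the sources used here. Antilogs of the deposited values were whole reads in every library, at a tolerance of 0.01 reads, and CPM values printed here are those reads per M of the scaled library. The table held 16411 genes, of which 81 were removed because log2 CPM exceeded 0 in fewer than 2 libraries.

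Groups came from titles and treatment labels, and 1 library whose labels disagree entered no group. The 19 libraries of all 6 groups entered a limma 3.58.1 model in R 4.3.3, which had 1 mean per group, a correlation of 0.404 between libraries with the same title code, 13 residual degrees of freedom and variances moderated towards a trend on mean level. All groups entered so that they share 1 estimate of the spread. Two-sided p-values were adjusted over 16330 genes by the Benjamini-Hochberg method. They measure the spread between these libraries, of which several share a mouse. Intervals and floors cover counting error only.

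The 43 gene lists, with 830 entries, were chosen with earlier results of these data known, as were the members compared. They are described by counts and medians, with no test over a list. Genes named are those past the threshold, the 3 members with the smallest p in a list, and some genes chosen for the subject of the study. Promoter sequences and positions are from RefSeq on GRCm38.p6, a different build from that of the files, and were matched by symbol for 11257 of the tested genes.

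In data simulated with the same groups and codes on 16330 genes, 49 of 100 genes changed 2-fold and 89 of 100 changed 4-fold were called, with 4.17% false calls among 144. Changes were planted only in genes with a mean log2 CPM over 1, so the shares called do not cover genes of lower level. The simulated spread was normal and held no library that stood apart, as several do in the data. The alternatives varied low-value filtering, the reads added, scaling, the treatment of shared codes, terms for library-name series or title number, and which libraries entered.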

Additional observations from a re-analysis of the deposited data

Results flagged for a closer look

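In 9 of 155 measures examined, 1 of the 4 control libraries stood far from the other controls, and chance alone gives about 1 such case in 20. Control 1 was high for Cxcl10 at 26.39 CPM, Socs1 at 3.298 CPM, Zbp1 at 25.08 CPM and Psme2 at 57.72 CPM, and low for Parg at 20.25 CPM. Its summed B and plasma cell markers, at 340.4 CPM, were high and its summed mammary epithelial markers, at 2605 CPM, were low. Control 2 was low in summed class I presentation genes, at 2293 CPM against 8310 CPM or more in the other controls. Control 3 was high for Nfe2l2, the transcription factor NRF2, at 41.45 CPM.

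The MDA594 library with no group was above every control for all 9 genes that rose with olaparib. It had 16.71 CPM of Akirin1, 15.02 of Cdr2, 55.06 of Clec7a, 60.11 of Creld2, 50.66 of Cxcl10, 6.909 of Lactb, 16.69 of Mfsd12, 8.232 of Ms4a4c and 53.74 of Nectin3. It was below every control for 9 of the 11 genes that fell, all but Mpv17l and Selenbp1. These genes were chosen for separating these same controls from the olaparib libraries. The share of all tested genes placed so in this library was not counted, and which of its labels is right was not tested. The same library also held 133.7 CPM of skeletal muscle markers, against 5.38 to 1681 CPM in the olaparib libraries and 4.25 to 7.65 CPM in the controls. Its title and the header of the deposited table name a control and its treatment label says treated, so it was put in no group.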

How the results depend on the processing

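The 20 calls became 57 with quantile normalisation, 1024 with no correlation within a code, 111 with library-name series modelled, 5220 within series 450 and 3123 with title numbers modelled. They became 0 with 2 reads added, with the mean of the libraries of a code, with the 7 MDA594 libraries alone, with voom and, in a fit chosen after seeing the data, without control 2 and olaparib 3. Leaving out 1 library gave 0 to 389 calls. The fits within series 450 and with the title number had estimated correlations of -0.298 and -0.127, which narrow the errors, and rest on controls 3 and 4, from 1 host code. Differences in response from MDA594 numbered 357 for OR1 and 963 for OR2 within series 450, and 1178 for OR1 and 302 for OR2 with the title number, against 0. The OR1 count within series 450 rests on 1 OR1 control, library 3, whose group has no spread there, so no conclusion is drawn from it. Genes whose groups do not overlap numbered 4067 here and 4363 to 6073 without 1 library. They numbered 10147 within series 450, 11455 among the 4 libraries with a shared title number and 6710 without control 2 and olaparib 3. All these alternatives had fewer libraries.

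Signs turned for genes outside the calls. Tbk1 was 0.0153 within series 450 and 0.0509 with the title number; Igkc was 0.14 with the series modelled, 1.25 within series 450 and 1.36 with the title number; Acta1 was -0.57 with the title number. Krt8 was 0.0455 within series 450, 0.10 with the title number and 0.25 without control 2 and olaparib 3. With quantile normalisation Epcam was 0.0397 and Mki67 0.0217, and Mki67 was 0.066 with the series modelled. Leaving out 1 library gave ranges of -0.0801 to 0.046 for Tbk1, -2.08 to 1.01 for Igkc, -0.0426 to 5.76 for Acta1, -0.22 to 0.16 for Krt8, -0.31 to 0.0114 for Epcam and -0.0048 to 0.10 for Mdm2. Where no value shows it, the cause was not tested. No paired analysis was possible because the olaparib and control groups of MDA594 share only 1 title number; the fit with that number as a term is given above. Genes under 10 reads in a library, such as Mpped1, are limited by depth.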
